A study of Mus musculus with 6 samples.

Results

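The amino acid transporters described here are the rows of the count table whose symbol begins with Slc1a, Slc7a, Slc36a, Slc38a or Slc43a and a digit, together with Slc3a1 and Slc3a2. There were 43 such rows among 21878 genes. Of these, 42 are transporters or their partner chains, and 1, Slc7a6os, matched by its symbol only. It is a separate protein-coding gene, named for lying near Slc7a6 on the opposite strand. RNA of tumour-associated macrophages, the macrophages that settle in a tumour, was sequenced in 6 libraries of the mouse. The 3 KO libraries came from Trmt61af/fLysmCre mice, in which both floxed alleles of Trmt61a meet a Cre recombinase made from the lysozyme M locus of myeloid cells. The 3 WT libraries came from Trmt61af/f mice, which carry the same floxed alleles and no Cre. Every mouse bore a tumour of MC38, a mouse colon carcinoma line, injected 14 days before the cells were sorted. The Cre is active in neutrophils and other myeloid cells as well as macrophages. The sources used here do not give the age or sex of the mice, the sorting gate, or whether each library came from its own mouse.

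The TRMT61A protein is the catalytic part of a tRNA methyltransferase, which makes m1A, a methylated adenosine. The comparison asks how the RNA of tumour macrophages differs between mice with and without its deletion. Only the KO mice carry the Cre at the lysozyme M locus, so its part and that of the deletion cannot be told apart. Amino acid transporters set the supply of the substrates that charged tRNAs carry. Slc3a2, the CD98 heavy chain, is a single-pass glycoprotein that brings a light chain of the Slc7 family to the plasma membrane. The light chains are exchangers, which pay for each amino acid taken up with another that leaves. Cationic Slc7 carriers work without a heavy chain and bring in arginine, the substrate of arginase and of nitric oxide synthase in macrophages. Slc1 and Slc38 proteins load neutral amino acids such as glutamine with sodium, and Slc36 proteins such as SLC36A1 move small amino acids with protons. When amino acids run short, the kinase GCN2 raises translation of the transcription factor ATF4, which drives several transporter genes. At the lysosome, SLC38A9 reports arginine to the mTORC1 kinase.

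ATF4 acts with C/EBP partners at a composite element, and its core was searched here as TGATGNAA on both strands of RefSeq promoter windows (GRCm38.p6, 250 bases before to 50 after a start). Windows were found for 32 of the 43 rows, 43 windows in all since some genes have several starts. A match stood in 4 of these 43 windows (9.30%), which belong to 3 genes, against 3.969% of all 32851 windows. The 3 sequences are shown because Slc7a11, Slc1a4 and Slc7a7 are the members with a match in a searched window. Bases outside the windows and rows without a window were not searched, so elements of other members may have been missed. Each is written 5′ to 3′ on the gene's strand with the matches in capitals. The Slc7a11 stretch is chr3:50443628-50443719, minus strand, and holds 2 matches that face each other, at -66 to -59 and at -47 to -40 from the start. The Slc1a4 stretch is chr11:20332704-20332757, minus strand, with 1 match on the opposite strand across the start. The Slc7a7 stretch is chr14:54417935-54418125, minus strand, with 2 matches. A second Slc7a7 window, for a start farther downstream, holds the nearer of those 2 matches again.
Slc7a11: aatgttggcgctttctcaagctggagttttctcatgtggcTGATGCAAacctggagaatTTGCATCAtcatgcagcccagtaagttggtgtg
Slc1a4: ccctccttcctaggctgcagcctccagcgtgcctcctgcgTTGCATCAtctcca
Slc7a7: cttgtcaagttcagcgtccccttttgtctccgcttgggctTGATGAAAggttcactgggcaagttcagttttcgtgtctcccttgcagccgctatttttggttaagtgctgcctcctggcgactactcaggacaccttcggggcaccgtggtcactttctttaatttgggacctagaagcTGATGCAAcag

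The core of the antioxidant response element, to which NRF2 binds, was searched in the same way as TGACNNNGC. It stood in 6 of the 43 windows (13.95%) and in 12.392% of all windows. The 5 genes with a match were Slc43a1, Slc7a1, Slc7a6, Slc36a1 and Slc38a2. No member thus had matches of both motifs, and no match of either motif overlapped a match of the other. A second Slc7a6 window, for a start farther downstream, holds the same Slc7a6 match again. A match of letters is a description of these windows and not a binding site.

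Library totals ran from 18839026 to 20313597 counts. Trmt61a itself stood at 8.01, 6.95 and 7.37 CPM (counts relative to the library total scaled by TMM factors) in the WT libraries and at 2.13, 1.73 and 2.46 CPM in the KO libraries, so each library followed its label. Its log2 fold change, KO over WT, was -1.81 (SE 0.197, edgeR adjusted p = 0.0426), a call lost in 9 of 17 alternative settings (adjusted p from 4.06e-10 to 0.314). KO replicate 2 stood apart on the first principal component, with a score of 29.41 beside scores of -17.99 to 5.257 for the rest. Macrophage markers were abundant, with 13 genes summing to 24220 to 27619 CPM in WT and 20086 to 20738 CPM in KO. The list contains Lyz2, the gene at the Cre locus, and without it the sums were 15185 to 16783 CPM in WT and 15109 to 15838 CPM in KO. Of the 13 macrophage markers, Lyz2 among them, 9 were negative and 4 positive in KO, with a median log2 fold change of -0.101. At an unadjusted p under 0.05, 3 were lower and 1 higher, where 3.06% of all tested genes were lower. All KO values lay below WT for 4 and above WT for 1, where 6.30% of all tested genes had KO below. None of the 13 was called with edgeR. Of the 12 neutrophil markers 5, among them Ly6g and Elane, were under 1 CPM in every library, and the sums were 54.9 to 72.1 CPM in WT and 57.1 to 101 CPM in KO. T and NK cell markers (14 genes) summed to 33.0 to 48.2 CPM in WT and 30.2 to 79.9 CPM in KO, highest in KO replicate 2. Single markers of these cells were mostly positive in KO. Of 6 tested neutrophil markers 5 had a log2 fold change above 0, 3 were higher at an unadjusted p under 0.05, 2 had all KO values above WT, and the median was 0.621. Of 13 tested T and NK cell markers 12 were positive, 1 was higher at an unadjusted p under 0.05, and the median was 0.351. Among all tested genes 3.86% were higher at that limit, 6.11% had all KO values above WT, and 49.8% were positive. Neither the neutrophil list nor the T and NK cell list had a gene called with edgeR. The dendritic cell sums (9 genes) were 18.9 to 31.8 CPM in WT and 21.9 to 43.1 CPM in KO. Epcam, Krt8, Krt18, Krt19 and Krt20, markers of the carcinoma cells, were under 1 CPM in every library, Krt20 with no read, while Cdh1 brought the sum of that list to 77.0 to 141 CPM in WT and 112 to 134 CPM in KO. The B cell, fibroblast, endothelial and mast cell sums were 1.46 to 1.68, 205 to 323, 61.2 to 72.0 and 2.70 to 4.19 CPM in WT, and 0.985 to 2.73, 204 to 297, 65.0 to 88.6 and 3.11 to 7.03 CPM in KO. KO replicate 2 also had the highest neutrophil, dendritic, B cell and mast cell sums of all libraries. The fibroblast, endothelial and carcinoma sums were highest in other libraries. The part of these other cells in the transporter values was not tested. In bulk RNA, fewer cells of a type and less RNA per cell cannot be told apart.

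No amino acid transporter passed the test between KO and WT. Of the 43 rows 23 had enough reads to be tested, 22 transporters and Slc7a6os, and 0 of them passed at an adjusted p under 0.05 (edgeR quasi-likelihood test, adjusted over 12136 genes), where 0.0165% of all tested genes passed. Those that passed were Trmt61a and Ckb, both lower in KO. The smallest adjusted p of a transporter was 0.713. At an unadjusted p under 0.05 there was 1 member, Slc38a7, higher in KO, where 6.92% of all genes lay under that limit, 3.86% higher and 3.06% lower in KO. DESeq2, limma-voom and limma-voom with quality weights each called 0 members, where they called 0.239%, 0.00824% and 0.033% of all genes. The log2 fold changes ran from -0.24 for Slc7a2 to 0.21 for Slc38a9, with 15 positive and 8 negative. Their median was 0.033, beside -0.00088 over all tested genes, of which 49.8% were positive. Without KO replicate 3 the median was 0.0905.

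**Figure D1:**
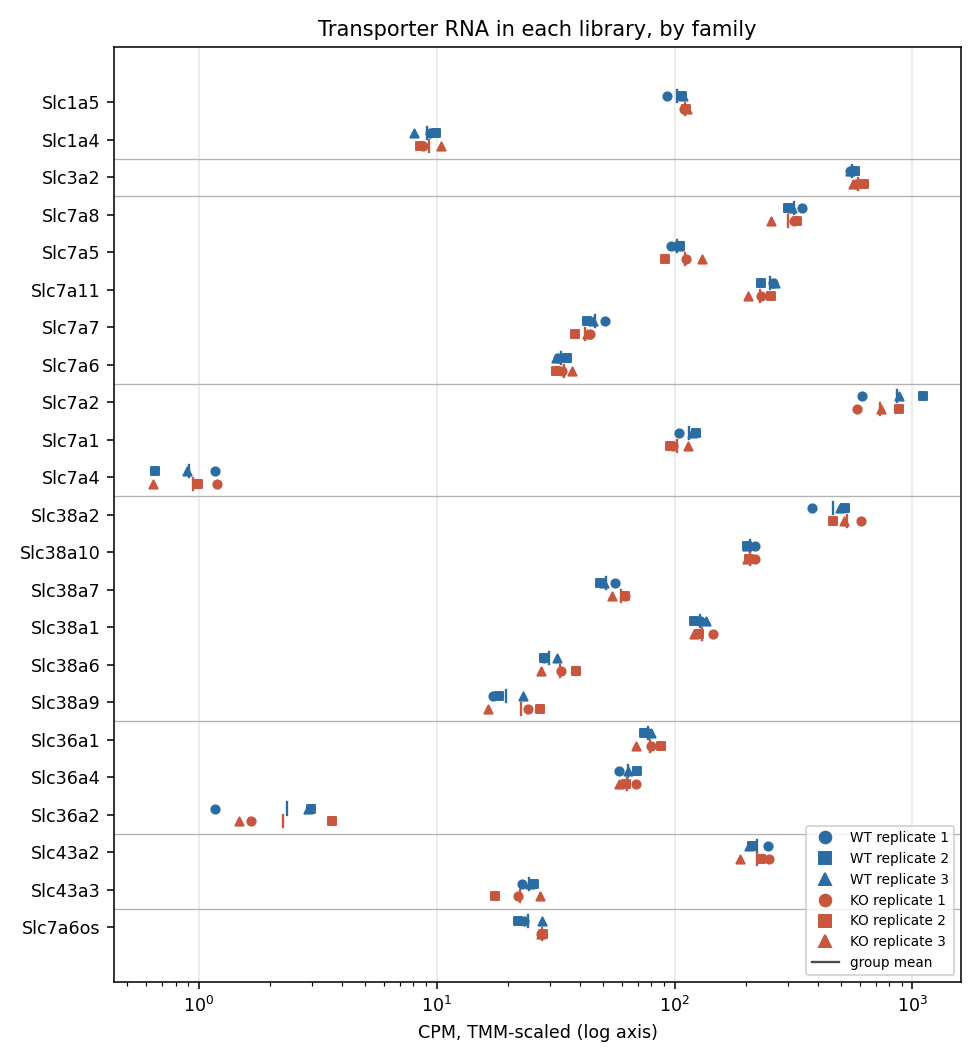
CPM of the 23 tested rows in each of the 6 libraries on a log axis, grouped by family from Slc1 at the top to Slc7a6os at the bottom. Points are single libraries (blue WT, red KO) and short vertical lines are group means. The WT and KO points overlap in every row except Slc1a5, whose 3 KO values (109.6 to 112.4 CPM) lie above its WT values (92.98 to 108.3 CPM).

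Which transporters these macrophages express can be read from the level per length, that is CPM per kilobase of exon. The CD98 heavy chain Slc3a2 led, at 183.8 ± 5.48 CPM per kb in WT and 194.6 ± 11.4 CPM per kb in KO (SD, n = 3 each). Next came the arginine carrier Slc7a2 (99.8 ± 28.1 in WT), the glutamine carrier Slc38a2 (99.5 ± 16.3) and the light chain Slc7a8 (78.0 ± 5.77 CPM per kb). The WT libraries of these 3 overlapped, so their order among themselves is not settled. A gap followed, since Slc38a10 stood at 38.1 ± 1.65 CPM per kb, below every WT value of Slc7a8. From Slc38a10 the level declined by way of Slc1a5 (37.2), Slc43a2 (30.8), Slc7a5 (29.0) and Slc7a11 (25.6 CPM per kb), where each of the first 3 overlapped the next in the order and the WT values of Slc7a5 lay above those of Slc7a11. The lowest tested transporters were Slc1a4 (2.33), Slc38a9 (2.19), Slc36a2 (0.965) and Slc7a4 (0.261 CPM per kb). Lengths were taken from the basic transcript set of the annotation. With the exons of all annotated transcripts Slc3a2 still led, at 157 CPM per kb, and Slc38a2 stood at 52.5 CPM per kb, behind Slc7a8 at 63.6. The order after Slc38a10 also changed with those lengths, to Slc7a5 (27.5), Slc1a5 (24.6), Slc43a2 (22.0) and Slc7a11 (18.1 CPM per kb).

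**Figure D2:**
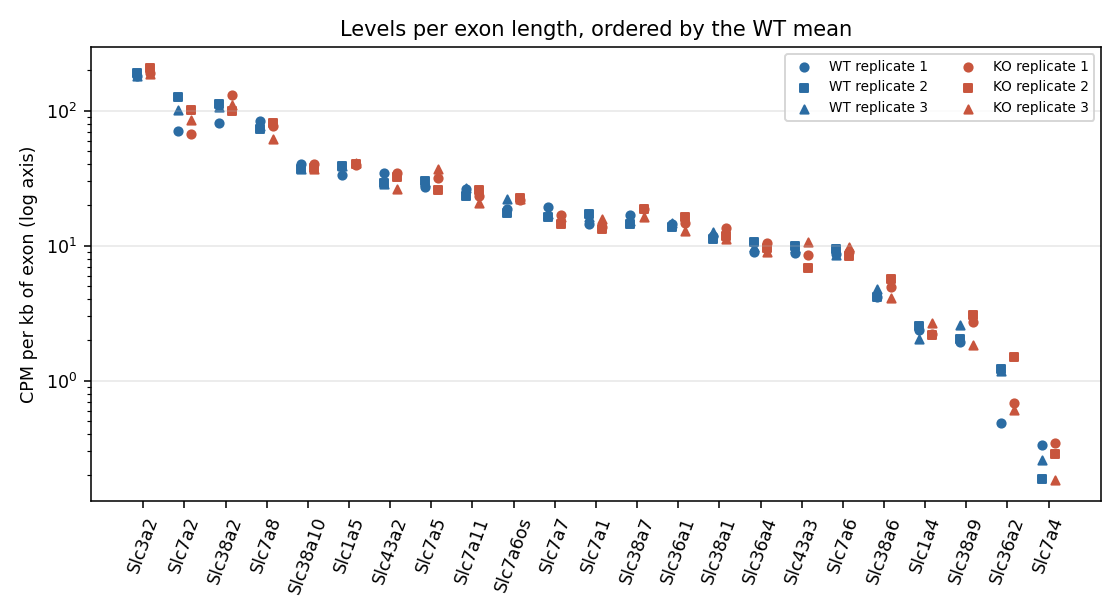
CPM per kilobase of exon on a log axis for the 23 tested rows, ordered by the WT mean, with 1 point per library (blue WT, red KO). Slc3a2 is highest in all 6 libraries (180.2 to 207.4 CPM per kb), and Slc36a2 and Slc7a4 are lowest.

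The heavy chain was close to even across the libraries, with a coefficient of variation of 2.98% in WT and 5.86% in KO. Slc3a2 (NCBI Gene 17254, GRCm38 chromosome 19, 8706882 to 8723369, minus strand) was at 547, 574 and 545 CPM in the WT libraries and at 577, 627 and 561 CPM in the KO libraries. KO replicate 2 was highest, and KO replicate 3 lay among the WT values. The log2 fold change, KO over WT, of 0.083 had an SE of 0.0726 (edgeR adjusted p = 0.822), with a 95% interval of 0.946-fold to 1.19-fold. The other heavy chain, Slc3a1 or rBAT, partner of the kidney and gut cystine carrier Slc7a9, had 1, 1 and 2 reads in WT and 0 reads in each KO library. That is under the limit of 3 reads that a count of 0 allows, equal to 0.148 to 0.159 CPM in these libraries, so no fold is given. Slc7a9 was at 0 in all 6 libraries.

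Among the light chains that pair with Slc3a2, Slc7a8 had the largest share of the RNA in all 6 libraries. Slc7a8, or LAT2, exchanges a broad range of neutral amino acids. Per kilobase it held 49.0% ± 1.59 of the 5 expressed light chains in WT and 47.8% ± 4.80 in KO (SD, n = 3 each). Slc7a5, or LAT1, which takes up large neutral amino acids such as leucine, held 18.3% ± 1.64 and 20.7% ± 4.39. Slc7a11, or xCT, which imports cystine for glutamate, held 16% ± 0.777 and 15.2% ± 1.25. Slc7a7 and Slc7a6, the y+LAT exchangers that trade arginine or lysine for neutral amino acids, held 11.1% ± 0.529 and 5.59% ± 0.536 in WT. The WT and KO ranges of each share overlapped. The ratio of Slc3a2 to the 5 light chains per kilobase was 1.09, 1.25 and 1.13 in WT and 1.2, 1.34 and 1.27 in KO, so WT replicate 2 lay within the KO range. With the exons of all annotated transcripts the share of Slc7a5 was 21.1% in WT and that of Slc7a11 13.9%.

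None of the light chains passed between KO and WT. Slc7a5 (chromosome 8, 121881150 to 121907694, minus strand) was at 96.3, 105 and 104 CPM (WT) and at 112, 91.2 and 131 CPM (KO). The KO libraries thus held both the lowest and the highest value. Its log2 fold change, KO over WT, of 0.12 had an SE of 0.118 (edgeR adjusted p = 0.842), and the value was -0.0056 without KO replicate 3. Slc7a11 (chromosome 3, 49892526 to 50443614, minus strand) was at 258.5, 231.6 and 265.0 CPM (WT) and at 231.3, 253.3 and 204.1 CPM (KO; log2 -0.13, SE 0.0927, edgeR adjusted p = 0.788). KO replicate 2 lay among the WT values of Slc7a11, and KO replicate 3 was lowest. Slc7a7 (chromosome 14, 54369442 to 54417780, minus strand) was at 51.0, 42.9 and 45.4 CPM (WT) and at 44.3, 38.3 and 43.01 CPM (KO; log2 -0.15, SE 0.0921, edgeR adjusted p = 0.767). Its groups overlapped through WT replicate 2, and of its exon bases 7.0% are shared with Oxa1l on the other strand. Slc7a8 was at 318 ± 23.6 CPM (WT) and 299.5 ± 40.2 CPM (KO; log2 -0.088, SE 0.104), and Slc7a6 at 33.2 ± 1.90 and 34.2 ± 2.65 CPM (log2 0.04, SE 0.0888). Of the 3 genes with the ATF4 core in the printed windows, Slc7a11 and Slc7a7 thus had negative and Slc1a4 slightly positive values, none of which passed.

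Of the cationic carriers, Slc7a2 had the largest mean CPM and a coefficient of variation of 28.1% in WT and 20.01% in KO. Slc7a2, or CAT2 (chromosome 8, 40862396 to 40922308, plus strand), was at 616, 1103 and 875 CPM (WT) and at 585, 878 and 735 CPM (KO). The spread within WT was 1.79-fold, and replicate 1 was lowest in both groups. Its log2 fold change of -0.24 (SE 0.218, edgeR adjusted p = 0.833) was the most negative of all members and had an interval of 0.597-fold to 1.202-fold. It was -0.0225 without WT replicate 2 and -0.43 without WT replicate 1. Slc7a1, or CAT1 (chromosome 5, 148327410 to 148399904, minus strand), the carrier of arginine in most cells, was at 105, 123 and 118 CPM (WT) and at 98.6, 95.5 and 113.5 CPM (KO). KO replicate 3 lay within the WT range, and the fitted log2 change amounted to -0.17 (SE 0.0906, edgeR adjusted p = 0.725). Per kilobase Slc7a2 held 83.0% to 88.1% of the sum of both carriers in WT and 83.1% to 88.4% in KO. Slc7a4 was near the floor, with 23, 13 and 18 reads in WT and 23, 19 and 13 reads in KO, and Slc7a3 had 3 to 10 reads per library.

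The tested Slc38 carriers had positive values with all 6 libraries, without a call. All 6 tested members had a log2 fold change above 0, with a median of 0.18, where 49.8% of all tested genes were positive. Each stayed positive with the 3 other scalings. The values of Slc38a1 (0.034, SE 0.0833) and Slc38a10 (0.012, SE 0.0699) were smaller than their SEs. Slc38a1 and Slc38a10 turned negative when KO replicate 1 was left out (-0.042 and -0.024), and Slc38a10 also without WT replicate 3 (-0.0061). Slc38a7 (chromosome 8, 95835920 to 95853539, minus strand), a carrier that lets glutamine out of the lysosome, was at 56.2, 48.6 and 50.6 CPM (WT) and at 62.1, 61.9 and 54.4 CPM (KO). KO replicate 3 lay under WT replicate 1, so the groups overlapped. Its log2 fold change was 0.20 (SE 0.0858, unadjusted p = 0.0423, edgeR adjusted p = 0.713), and it ran from 0.163 to 0.263 when 1 library was left out.

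Slc38a2, or SNAT2, a sodium-driven carrier of small neutral amino acids that cells raise under amino acid shortage, is on chromosome 15 (96687392 to 96699730, minus strand). It was at 377, 520 and 494 CPM (WT) and at 607, 466 and 516 CPM (KO). WT replicate 1 was lowest and KO replicate 1 highest, while the other 4 libraries lay between 465.7 and 519.7 CPM. The log2 fold change, KO over WT, of 0.19 had an SE of 0.136 (edgeR adjusted p = 0.791), and the value was 0.066 without WT replicate 1. Slc38a9, the lysosomal arginine sensor, was at 17.2, 18.3 and 23.02 CPM (WT) and at 24.1, 27.1 and 16.5 CPM (KO; log2 0.21, SE 0.188, edgeR adjusted p = 0.830). The KO libraries of Slc38a9 again held the lowest and the highest value. Slc38a6 was at 28.3, 28.2 and 32.1 CPM (WT) and at 33.3, 38.5 and 27.5 CPM (KO; log2 0.16, SE 0.123). Slc38a1, a glutamine carrier of lymphocytes and neurons, was at 128 ± 7.02 and 131 ± 12.1 CPM, and Slc38a10 at 207 ± 8.96 and 209 ± 8.89 CPM.

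In the Slc1 family, 2 of 7 members were tested, both of them carriers of neutral amino acids. Slc1a5, or ASCT2, which exchanges glutamine for other neutral amino acids (chromosome 7, 16781340 to 16798274, plus strand), was at 93.0, 107 and 108 CPM (WT) and at 110, 111 and 112 CPM (KO). It was the only member of 23 whose groups did not overlap, where 12.4% of all tested genes did not overlap (6.11% with KO above, 6.30% with KO below). The log2 fold change, KO over WT, of 0.11 had an SE of 0.0764 (edgeR adjusted p = 0.785), with an interval of 0.961-fold to 1.22-fold, and it was 0.047 without WT replicate 1. Slc1a4, or ASCT1, a carrier of serine and alanine, was at 9.14 ± 0.974 CPM (WT) and 9.26 ± 1.03 CPM (KO; SD, n = 3 each). The glutamate carriers were at or near 0: Slc1a1, Slc1a3 and Slc1a6 had no read in any library, Slc1a2 had 2 to 8 reads and Slc1a7 had 1 to 9.

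None of the Slc36 or facilitating Slc43 carriers passed the test. Slc36a1, a lysosomal exporter of small amino acids, was at 77.2 ± 2.81 CPM (WT) and 79.0 ± 9.59 CPM (KO). Slc36a4 was at 63.9 ± 5.41 and 63.2 ± 5.11 CPM. Slc36a2 was low and uneven, at 1.17, 2.97 and 2.89 CPM (WT) and 1.66, 3.62 and 1.48 CPM (KO), with an interval of 0.482-fold to 1.90-fold. Slc43a2, or LAT4, which lets branched-chain amino acids and phenylalanine pass, was at 221 ± 22.7 and 223 ± 30.7 CPM. Slc43a3, a carrier of purine bases in a family of amino acid carriers, was at 24.4 ± 1.41 and 22.4 ± 4.84 CPM. Slc7a6os, which is no transporter, was at 23.2, 22.0 and 27.8 CPM (WT) and at 27.4, 28.0 and 27.5 CPM (KO; log2 0.19, SE 0.103, edgeR adjusted p = 0.739). Only WT replicate 3 of Slc7a6os reached the KO values.

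Another 20 rows had too few reads to be tested. At 0 in all 6 libraries were 10 of them: Slc1a1, Slc1a3, Slc1a6, Slc7a9, Slc7a10, Slc7a12, Slc7a14, Slc7a15, Slc38a5 and Slc38a8. The other 10 had at most 10 reads in any library: Slc1a2, Slc1a7, Slc3a1, Slc7a3, Slc7a13, Slc36a3, Slc38a3, Slc38a4, Slc38a11 and Slc43a1. All members together took 0.341% to 0.390% of the reads of a library, and Slc7a2 alone took 18.1% to 27.7% of their CPM in WT and 16% to 23% in KO.

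How large a change the data leave room for is given by the 95% intervals, which are per gene and not adjusted. For 19 of 23 members the whole interval lay inside a 1.5-fold change in either direction, where 72.7% of all tested genes did so. Among genes of at least 8 CPM it was 19 of 21 members and 91.0% of all genes. The 4 members whose interval reached past 1.5-fold were Slc7a2, Slc38a9, Slc36a2 and Slc7a4. The narrowest was that of Slc38a10, from 0.905-fold to 1.12-fold.

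**Figure D3:**
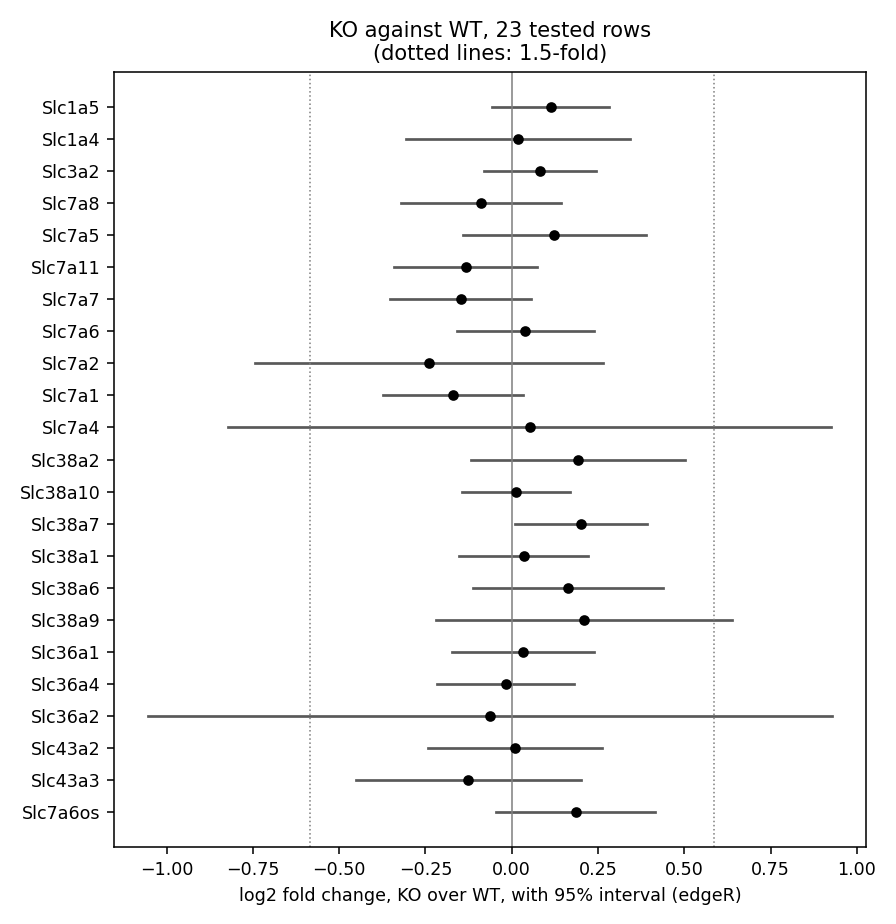
Log2 fold change of KO over WT for the 23 tested rows (points) with the 95% interval from the edgeR fit (lines). Dotted lines mark a 1.5-fold change. Only the interval of Slc38a7 leaves out 0, from 0.0084 to 0.39, and those of Slc7a2, Slc38a9, Slc36a2 and Slc7a4 cross a dotted line.

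Leaving out a library moved many of these values as much as the values themselves. Of the 22 members at 1 CPM or more, 11 had the same sign in all 17 alternative settings, and 11 changed sign in at least 1 setting that left out a library. Those that kept a positive sign were Slc1a5, Slc3a2, Slc38a2, Slc38a6, Slc38a7, Slc38a9 and Slc7a6os. A negative sign was kept by Slc7a1, Slc7a2, Slc7a7 and Slc7a11. No member passed in any setting, and the lowest adjusted p was 0.347, for Slc38a7. Slc38a9 ran from 0.055 without KO replicate 2 to 0.395 without KO replicate 3, and Slc38a6 from 0.04 to 0.28 with the same libraries left out. Slc7a11 was at -0.0525 without KO replicate 3, Slc3a2 at 0.034 without KO replicate 2, Slc7a7 at -0.073 without WT replicate 1 and Slc7a1 at -0.113 without WT replicate 2.

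**Figure D4:**
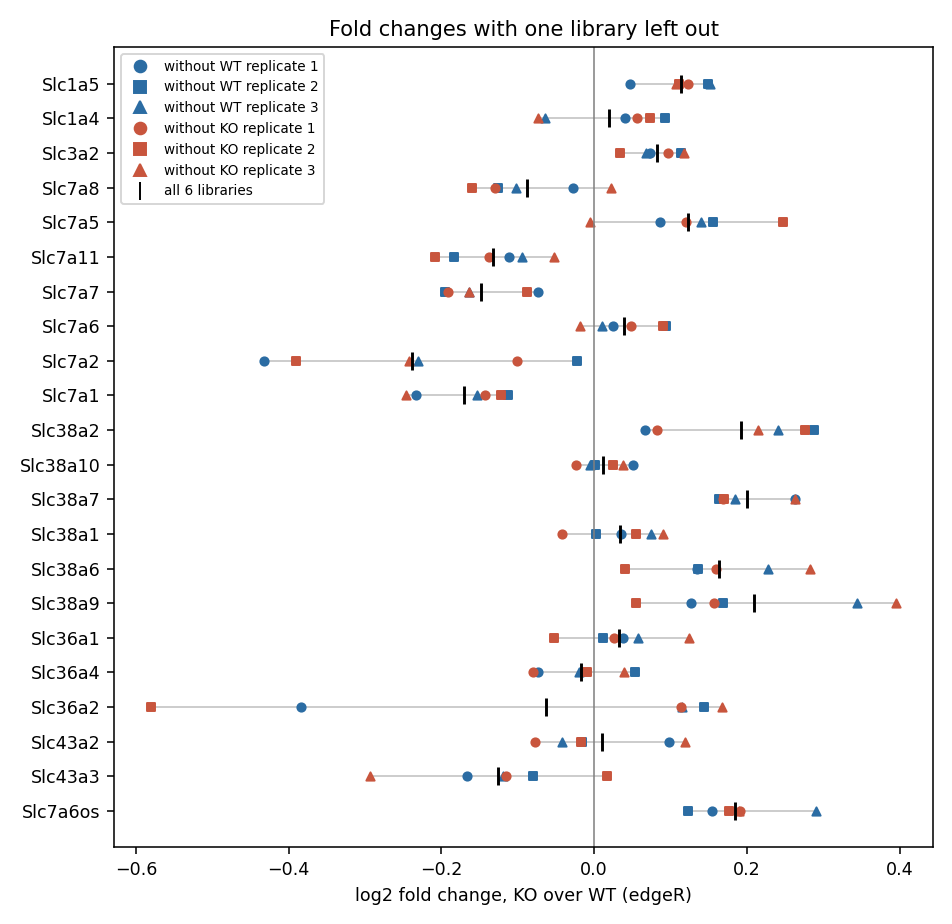
Log2 fold change of KO over WT with each library left out in turn (colour and shape name the library) for the 22 members at 1 CPM or more, with the value from all 6 libraries as a black bar. The points of Slc7a2 run from -0.433 to -0.0225 and those of Slc36a2 from -0.58 to 0.167, while those of Slc38a10 stay between -0.024 and 0.05.

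The genes around the transporters were read from 5 lists. In the ATF4 amino acid response, 0 of 22 tested genes were called with edgeR, 18 had positive values, and the median log2 fold change was 0.145. At an unadjusted p under 0.05, 3 were higher and 0 lower: Ddit4, an inhibitor of mTORC1, Atf4 itself and the transcription factor Cebpb. Over all tested genes 3.86% were higher and 3.06% lower at that limit, and 49.8% had positive values. Ddit4 was at 55.5, 58.9 and 55.2 CPM (WT) and at 83.1, 64.9 and 77.9 CPM (KO; log2 0.413, SE 0.0948, edgeR adjusted p = 0.694). Atf4 was at 271, 301 and 297 CPM (WT) and at 334, 365 and 338 CPM (KO; log2 0.255, SE 0.0742, edgeR adjusted p = 0.701). These were the 2 genes of the list with all KO values above WT, and 0 had all below. Of all tested genes, 6.11% had KO above and 6.30% KO below. Among 33 tested genes of amino acid sensing by mTORC1, 0 were called, 18 were positive and the median was 0.021. Flcn, the folliculin that acts on Rag GTPases, was at 59.1, 69.2 and 66.6 CPM (WT) and at 90.1, 107 and 67.7 CPM (KO). KO replicate 3 lay within the WT values of Flcn. Wdr24, a GATOR2 subunit, was at 17.8, 17 and 16.2 CPM (WT) and 19.4, 21 and 19.7 CPM (KO). Flcn and Wdr24 had an unadjusted edgeR p under 0.05 (0.0193 and 0.0343) and an edgeR adjusted p of 0.701 and 0.713.

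In the remaining lists 0 genes were called with edgeR as well. Of 17 tested carriers of other families, 8 were positive and 9 negative, with a median of -0.017. Slc6a8, which carries creatine, was at 81.8, 103 and 93.6 CPM (WT) and at 145, 139 and 96.5 CPM (KO; log2 0.446, SE 0.156, edgeR adjusted p = 0.701). KO replicate 3 lay within the WT values of Slc6a8. Of 27 enzymes of amino acid metabolism 12 were positive, with a median of -0.046. Arg2, the mitochondrial arginase, was at 36.1 ± 5.40 CPM (WT) and 29.9 ± 1.5 CPM (KO; log2 -0.27, SE 0.112, edgeR adjusted p = 0.713). Glul, which makes glutamine, was at 242 ± 10.9 and 270 ± 22.8 CPM. Of 13 genes of cystine and glutathione use 9 were positive, with a median of 0.035, and Txnrd1, a thioredoxin reductase, was at 377 ± 31.4 and 325 ± 27.2 CPM (log2 -0.214, SE 0.0883, edgeR adjusted p = 0.713). At an unadjusted p under 0.05 these 3 lists held 1 gene (Slc6a8, higher), 1 gene (Arg2, lower) and 1 gene (Txnrd1, lower), where 6.92% of all tested genes lay under that limit in either direction.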

How the data were processed

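The authors deposited 1 table of unnormalized counts for all libraries. The submitters' processing notes name Trimmomatic, HISAT2, Cufflinks, HTSeq and the build mm10, giving neither version nor role. Per the labels' protocols, a mirVana kit served for RNA extraction and a TruSeq stranded mRNA kit for the libraries. The sources used here do not give the annotation, the strand setting or how multiply mapped reads were handled, so reads of overlapping genes on opposite strands cannot be told apart. Exons of Slc7a2 (7.0%), Slc43a2 (9.2%), Slc38a10 (5.7%), Slc38a9 (1.1%), Slc7a4 (13.3%), Slc7a7 (7.0%), Slc3a1 (26.5%), Slc1a2 (1.4%), Slc1a1 (31.9%) and Slc7a10 (17.9%) share bases with a gene on the other strand; Slc1a1 and Slc7a10 had 0 reads in all 6 libraries.

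Counts were tested with edgeR 4.0.16 in R 4.3.3 (filterByExpr with minimum count 10 and minimum total 15, TMM factors, robust quasi-likelihood test, genotype as the only term), which left 12136 genes. Benjamini-Hochberg adjustment ran over all of them, with calls at an adjusted p under 0.05. CPM is the count relative to the TMM-scaled total. P-values weigh the difference between KO and WT against the spread between libraries, which may be partly technical. Whether that spread is one between mice is not known, since the mouse behind each library is not given. Alternatives were other scalings and filters, DESeq2 1.42.0, limma 3.58.1 (voom), edgeR without robust shrinkage, a replicate block, a threshold of 0.1 and each library left out. Coordinates and exon lengths come from GENCODE M21 (GRCm38, the assembly mm10 names), which held all 43 members. Promoters are RefSeq's.

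KO and WT counts of the 12136 genes were simulated with 67, 67 and 66 genes altered by 1.5-fold, 2-fold and 4-fold. The shares that edgeR called were 58.2%, 86.6% and 97%, with 14 false calls among 175. There was 1 call where no gene had been changed. The cutoff of the adjustment loosens as more genes are called, and the real data had only 2 calls. These shares therefore do not show how often a transporter altered as much would have been called here. In the real data Trmt61a, at a log2 fold change of -1.81, had an edgeR adjusted p of 0.0426. The members and lists were chosen with earlier results of these data known. Members with a mean of at least 1 CPM are named, with every library's value for the 12 with the smallest p. From each list up to 3 genes with the smallest p could be named. Markers without Lyz2, the lengths from all transcripts and the median without Slc7a6os were chosen after seeing the data.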

Additional observations from a re-analysis of the deposited data

How the results depend on the processing

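The count of 0 transporters called was the same in all 17 alternative fits and at a threshold of 0.1. The count over all genes, 2, was 1 with RLE factors, upper-quartile factors, library totals alone, no filter, limma-voom or the replicate block, 0 with at least 1 CPM in 3 libraries or a minimum count of 30, 4 with quality weights, 29 with DESeq2 and 0 to 5 with a library left out. Without KO replicate 2 it was 5. The median log2 fold change of the tested transporters, 0.0331, was 0.024 to 0.0905 with a library left out, and 0.026 without Slc7a6os.

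Signs changed in the fits that left out a library and in none of the others, for the members at 1 CPM or more. The ranges were -0.0742 to 0.0933 for Slc1a4, -0.0531 to 0.124 for Slc36a1, -0.58 to 0.167 for Slc36a2, -0.0808 to 0.0529 for Slc36a4, -0.042 to 0.0905 for Slc38a1 and -0.0237 to 0.0502 for Slc38a10. They were -0.0771 to 0.119 for Slc43a2, -0.293 to 0.0173 for Slc43a3, -0.00562 to 0.247 for Slc7a5, -0.0186 to 0.0945 for Slc7a6 and -0.16 to 0.0214 for Slc7a8. The cause was not tested.

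With the replicate block 0 transporters were called and their median was 0.0271. Same-numbered libraries did not deviate together (correlations of -0.0574, -0.0941 and -0.109), so the numbers were not taken as pairs. For Slc7a2 the SE was 0.0889 with the block, at a log2 fold change of -0.219, and 0.218 without it. The width of the interval of Slc7a2 thus depended on that choice. The SEs of other members moved in either direction, and that of Slc38a2 was 0.161 with the block and 0.136 without it. Slc36a2 had 23 to 69 reads per library and Slc7a4 13 to 23, and both had intervals past 1.5-fold. The part of depth in those intervals was not tested.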
